A study of Homo sapiens with 9 samples.

Results

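The PaTu 8988t libraries of this series were deposited as 2 tables of expression values, 1 with 4 libraries and 1 with 5, and the comparison described here is table against table. Its members are all 9 libraries of the series. Control 1, wild type 1, R213A 1 and R213A 3 make up the 4-library table. Control 2, control 3, wild type 2, wild type 3 and R213A 2 make up the 5-library table. The tables were joined by Ensembl gene identifier, and the 11193 genes of 58735 listed whose mean over the 9 libraries was at least 1 FPKM (fragments per kilobase of gene, scaled for sequencing depth) were tested, 9961 of them protein coding. No measured value was used to choose the libraries.

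PaTu 8988t is an established human pancreatic tumour cell line, so all 9 libraries share 1 genetic background. By their labels the libraries fall into 3 groups of 3 by the extracellular matrix used: a control matrix ("Ctrl ECM"), a matrix with wild-type CPXM2 ("CPXM2WT OE ECM") and a matrix with the R213A mutant of CPXM2 ("CPXM2R213A OE ECM"). CPXM2 is a secreted member of the carboxypeptidase family. All cells were grown in 90% DMEM with 10% fetal bovine serum and penicillin/streptomycin at 50 IU, TRIzol was used for extraction, and about 500 ng of total RNA per library entered the Illumina TruSeq stranded mRNA preparation. The labels give no density, day of medium change, harvest time or run, and no source used here says what the tables mark. Whether the tables differ by culture, by RNA extraction, by library preparation or by sequencing cannot be told apart. The labels do not say whether replicates were separate cultures, so p-values measure only how these libraries vary, and that variation may be technical.

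Several pathways that cultured cells adjust to their medium are described below, with the following background. Sterol regulatory element binding proteins are held in the endoplasmic reticulum while sterols are plentiful and switch on the genes of cholesterol and fatty acid synthesis and of LDL uptake when sterols run low. Hypoxia-inducible factors switch on glucose uptake, glycolysis and mitochondrial clearance genes when oxygen is short, and the thioredoxin-interacting protein gene TXNIP follows glucose through the sensor MondoA. Oxidative phosphorylation runs through complexes I to IV and the ATP synthase, whose subunits come mostly from nuclear genes and in a small part from the mitochondrial genome. ATF4 switches on amino acid supply and stress genes when amino acids are short or proteins misfold, and FOXO factors act when insulin or growth factor signalling is low.

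Recovered read totals lay between 15951927 reads (R213A 1) and 18312806 reads (wild type 3), and 20059 to 21401 genes had at least 1 read. The ranges of the tables overlapped in depth, with 15951927 to 18203911 reads in the 4-library table and 16879407 to 18312806 in the 5-library table. Mitochondrial genes took 1.81% to 2.38% of reads in the 9 libraries. Of 9 marker genes for the pancreatic tumour line, 6 were expressed, among them KRT8, KRT18, EPCAM, VIM and CDH2, while KRT7, KRT19 and CDH1 had means under 1 FPKM. None of 11 fibroblast, 8 immune, 6 endothelial, 5 fat cell, 5 acinar or 4 islet markers reached a mean of 1 FPKM. The fibroblast markers summed to 0.122 to 0.304 FPKM in the 4-library table and 0.864 to 1.31 FPKM in the 5-library table, with FAP at 0 throughout; COL3A1 (0 to 0.0491 against 0.317 to 0.796 FPKM) and FBN1 (0.0634 to 0.181 against 0.275 to 0.468 FPKM) led that sum. Endothelial markers summed to 0.0885 to 0.211 FPKM against 0.503 to 0.989 FPKM, and immune markers to 0.163 to 0.456 FPKM against 0 to 0.151 FPKM. The part of these markers in the results was not tested. In bulk RNA, fewer cells of a type and less RNA per cell cannot be told apart.

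The deposited scaling was itself different between the tables. Multiplying FPKM by the listed gene length returned whole reads for 100% of values within 0.01 reads. Size factors computed as medians of ratios within the 4-library table alone matched the deposited scaling of those 4 libraries up to 1 constant factor. The same held within the 5-library table, whereas size factors over both tables left a spread of 10.6%. All levels below are therefore FPKM after the 9 libraries were brought to a common scale by median-of-ratios factors, which ran from 0.941 to 1.05. Where a gene has several values, those of the 4-library table are given in the order control 1, wild type 1, R213A 1 and R213A 3, and those of the 5-library table in the order control 2, control 3, wild type 2, wild type 3 and R213A 2.

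The table was the main line of division among these libraries. In limma, with table and matrix group as terms and Benjamini-Hochberg adjustment over all 11193 genes, 6676 genes (59.6%) passed an adjusted p of 0.05. Of these, 3313 (29.6%) were higher and 3363 (30%) were lower in the 4-library table. All 4 libraries lay above all 5 for 3006 genes (26.9%) and below all 5 for 3101 (27.7%). A called difference of at least 2-fold was found for 1521 genes upward (13.6%) and 1370 downward (12.2%). Table membership beside the matrix group accounted for a median of 51.6% of a gene's variance, and the group beside the table for 8.52%. The residual took 23.4%. The part that table and group share is in neither figure, because the groups are spread unevenly over the tables. Without R213A 2, the only R213A library of the 5-library table, 4224 genes passed, and 4211 of the 6676 calls (63.1%) held in the same direction.

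Spread within the tables was unequal, and control 2 stood apart from its table. The median SD of a gene's log2 level was 0.351 among the 4 libraries and 0.143 among the 5, or 0.0709 among the 5 without control 2. The other four libraries of the 5-library table came from all 3 matrix groups. Control 2 was the highest of the 9 for the sterol genes HMGCS1, INSIG1, MSMO1 and SQLE, and the mevalonate list stood 0.83 above the table's mean there. Among the 4, wild type 1 had the lowest G2/M list level, -1.19 relative to the 5-library mean, and the highest ATF4 target level, 0.86. Leaving out control 2 gave 6923 called genes and leaving out wild type 1 gave 5665, against 6676 with all 9. Without control 1 and control 2 together, 6223 of the 6676 calls (93.2%) held, with a mevalonate median of -1.68 and a complex I median of 1.40.

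The 10 protein-coding genes that were highest in the 4-library table by log2 difference were led by MFSD3, which encodes a membrane transporter family protein, at 25.3, 44.9, 94.2 and 46.9 FPKM in the 4-library table and 5.75, 3.44, 3.65, 3.34 and 3.18 FPKM in the 5-library table. Every 4-library value lay above every 5-library value, and the log2 difference was 3.21 ± 0.33 (SE; adjusted p = 0.000159). PTGES2, which encodes a prostaglandin E synthase, was at 57.6, 74.2, 164 and 85.5 FPKM in the 4-library table and 9.91, 7.86, 8.85, 8.32 and 8.57 FPKM in the 5-library table, a log2 difference of 3.06 ± 0.25 (SE; adjusted p = 9.33e-05). The other eight of the 10 were EEFSEC, METRN, COQ3, R3HCC1, MACROD1, MRPL54, POLR2L and GAMT, with log2 differences of 2.92 to 2.68. EEFSEC delivers selenocysteine to the ribosome, COQ3 acts in coenzyme Q synthesis, MRPL54 is a mitochondrial ribosomal protein, POLR2L is a small RNA polymerase subunit and GAMT makes creatine. R213A 1 was the highest library for all of the 10 genes. The 10 lowest were ALDOC, SCD, INSIG1, HMGCS1, STARD4, IDI1, BHLHE40, TNFRSF10D, ACLY and LPIN1, with log2 differences of -4.77 to -3.31. Of these, SCD, INSIG1, HMGCS1, STARD4, IDI1, ACLY and LPIN1 belong to sterol and fatty acid supply.

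Genes of cholesterol synthesis were lower in the 4-library table along most of the pathway. In the mevalonate pathway, 8 of 10 genes (80%) were called lower and 1 higher, against 30% lower and 29.6% higher over all genes tested, and the median log2 difference was -1.76 against 0.00. HMGCS1 (ENSG00000112972, chr5:43289395-43313512 in hg38, minus strand), which makes the HMG-CoA that feeds the pathway, was at 13.7, 3.96, 4.21 and 5.21 FPKM in the 4-library table and 377, 86.4, 79.5, 80.3 and 75.7 FPKM in the 5-library table. Every 4-library value was below every 5-library value, control 2 stood far above the other four libraries of its table, and the log2 difference was -3.80 ± 0.38 (SE; adjusted p = 0.000154). Isopentenyl diphosphate isomerase IDI1 was at 25.1, 9.08, 16.3 and 17.5 FPKM in the 4-library table and 434, 204, 202, 183 and 192 FPKM in the 5-library table, a log2 difference of -3.74 ± 0.26 (SE; adjusted p = 5.23e-05). FDPS and GGPS1, which build the longer isoprenoids, had log2 differences of -2.77 and -1.63, and PMVK, phosphomevalonate kinase, was called higher by 1.38. MVK, mevalonate kinase, did not pass, with a log2 difference of -0.34 ± 0.26 (SE; adjusted p = 0.288).

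In the list from lanosterol to cholesterol, which also holds SQLE, a step before lanosterol, 9 of 12 genes were called lower. None was called higher, and the median was -1.62. SQLE, squalene epoxidase, which commits squalene to sterols, was at 49.9, 21.3, 21.8 and 30.6 FPKM in the 4-library table and 278, 152, 153, 152 and 147 FPKM in the 5-library table. No 4-library value reached a 5-library value, and the log2 difference was -2.42 ± 0.24 (SE; adjusted p = 0.000154). MSMO1, a sterol methyl oxidase, was at 21.8, 17.1, 18.0 and 18.6 FPKM in the 4-library table and 422, 161, 169, 165 and 165 FPKM in the 5-library table, a log2 difference of -3.28 ± 0.28 (SE; adjusted p = 9.65e-05). SC5D, CYP51A1 and DHCR7 followed with -3.12, -2.55 and -1.76. EBP, NSDHL and TM7SF2 did not pass, with log2 differences of -0.59, -0.42 and -0.57.

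Sterol sensing and LDL uptake genes were lower as a group, with 9 of 11 called lower, 1 higher and a median of -1.21. INSIG1, which retains the SCAP-SREBP complex in the endoplasmic reticulum and is itself a target of SREBP, was at 12.2, 3.64, 6.67 and 6.48 FPKM in the 4-library table and 322, 124, 120.3, 122 and 115 FPKM in the 5-library table. The tables did not overlap, and the log2 difference was -4.19 ± 0.29 (SE; adjusted p = 4.84e-05). STARD4, a sterol transfer protein, and NPC1, which exports cholesterol from lysosomes, had log2 differences of -3.75 and -2.35. SREBF1 and SREBF2, which encode the factors themselves, were called lower by smaller steps, -1.21 and -0.91, and SCAP, their escort protein, was called higher by 0.84. The list of sterol export and LXR genes holds the LXR receptors, which sense oxidised sterols, together with genes under them. In it 5 of 8 were measured above the filter, with 1 called higher (the receptor gene NR1H3, 1.10) and 2 lower (MYLIP, -1.16, and LPCAT3, -1.04). ABCA1, the main cholesterol exporter of that list, stayed under the filter at 0 to 0.0138 FPKM in the 4-library table and 0.210 to 0.331 FPKM in the 5-library table.

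Fatty acid synthesis genes were lower in the 4-library table too. Of 17 genes of synthesis and desaturation, 12 were called lower and 3 higher, with a median of -1.38. SCD (ENSG00000099194, chr10:100347124-100364834, plus strand), the desaturase that makes oleate, was at 156, 73.0, 106 and 156 FPKM in the 4-library table and 3603, 2666, 2471, 2271 and 2194 FPKM in the 5-library table. Control 1 and R213A 3 were the highest of the 4 and still far below R213A 2, the lowest of the 5, and the log2 difference was -4.46 ± 0.26 (SE; adjusted p = 2.78e-05). ACLY, which cleaves citrate to cytosolic acetyl-CoA, was at 47.8, 20.0, 25.1 and 35.0 FPKM in the 4-library table and 555, 347, 333, 329 and 312 FPKM in the 5-library table, a log2 difference of -3.50 ± 0.23 (SE; adjusted p = 4.39e-05). FASN, the fatty acid synthase, was at 38.5, 12, 35.1 and 29.3 FPKM in the 4-library table and 476, 203, 194, 181 and 191 FPKM in the 5-library table, a log2 difference of -3.12 ± 0.31 (SE; adjusted p = 0.000154). ACSS2, FADS1 and ELOVL6 were called lower, at -2.56, -2.14 and -1.29, and the called increases were MCAT, TECR and FADS2 with 1.31, 0.80 and 0.46; without R213A 2, 1 gene was called higher. Among 14 lipid droplet and glycerolipid genes, 6 were called lower and 3 higher. LPIN1, a phosphatidate phosphatase, was at 4.95, 1.78, 2.63 and 3.82 FPKM in the 4-library table and 65.9, 36.7, 36.0, 33.3 and 36.9 FPKM in the 5-library table, with the tables apart and a log2 difference of -3.31 ± 0.21 (SE; adjusted p = 4e-05). ACSL4 and ACSL3, acyl-CoA synthetases, were lower, at -2.69 and -2.14, whereas DGAT1, which finishes triglyceride synthesis, was higher by 1.32. The median of this list was -0.29 in all libraries and 0.05 within the control matrix, and without R213A 2 it was -0.13, with 4 called lower and 1 higher.

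Fatty acid oxidation genes went the other way, with 12 of 17 called higher (70.6%, against 29.6% of all genes), 2 lower and a median of 0.91. The median was 0.54 under quantile scaling, and without R213A 2 there were 7 called higher. CPT1A (ENSG00000110090, chr11:68754620-68844410, minus strand), which carries acyl groups into mitochondria, was at 8.73, 11.1, 7.10 and 7.96 FPKM in the 4-library table and 2.08, 1.80, 2.09, 2.18 and 2.24 FPKM in the 5-library table. All 4 values exceeded all 5, and the log2 difference was 1.69 ± 0.14 (SE; adjusted p = 9.83e-05). ETFB and ACAA2, an electron carrier subunit and a thiolase, had log2 differences of 1.65 and 1.14. ACADM and ETFDH, a medium-chain dehydrogenase and the electron carrier's oxidoreductase, were called lower, at -0.95 and -0.73.

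**Figure D1:**
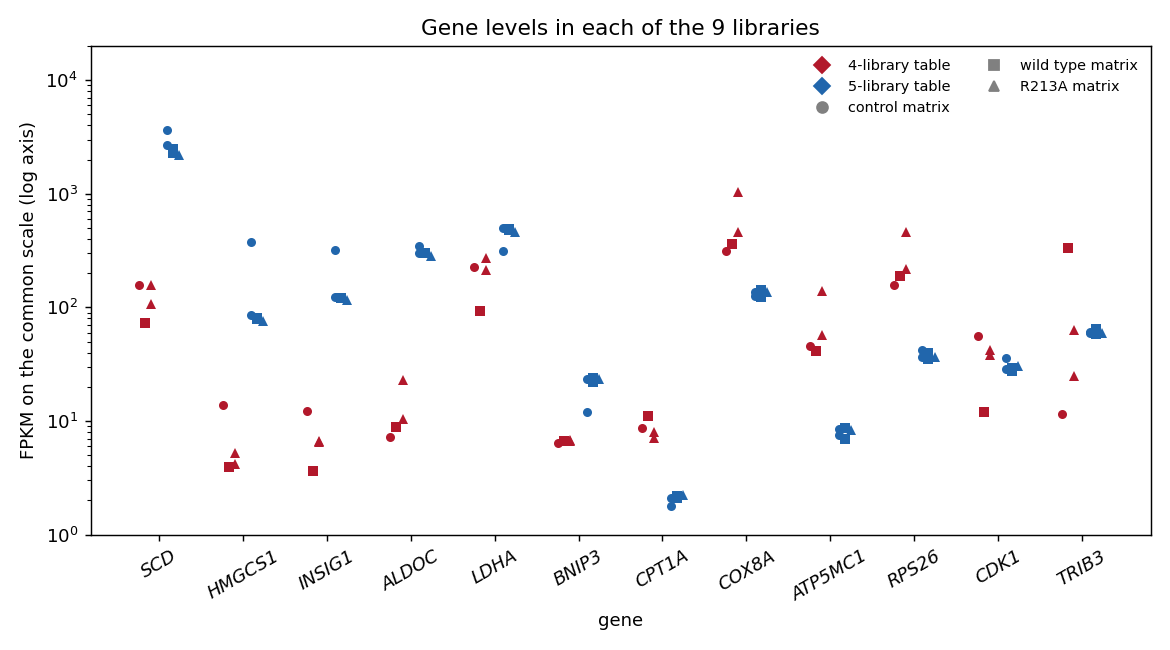
FPKM on the common scale (log axis) of 12 genes in each of the 9 libraries, in red for the 4-library table and blue for the 5-library table, with circles for control, squares for wild type and triangles for R213A matrix. The colours separate for SCD to RPS26, with HMGCS1 in control 2 at 377 FPKM above its table, while CDK1 and TRIB3 overlap, wild type 1 being lowest for CDK1 (12.1) and highest for TRIB3 (335).

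Glucose uptake and hypoxia genes and a part of the glycolytic genes were lower in the 4-library table. Of 19 glycolytic enzymes, 9 were called lower (47.4%, against 30% of all genes) and 0 higher, with a median of -0.36. Under quantile scaling 12 were called lower and the median was -0.74, and without R213A 2 it was -0.56. ALDOC (ENSG00000109107, chr17:28573115-28577264, minus strand), an aldolase isoform, was the gene with the lowest log2 difference of all, at 7.24, 8.85, 23.0 and 10.3 FPKM in the 4-library table and 344, 299, 299, 302 and 280.5 FPKM in the 5-library table. Its tables did not overlap, and the log2 difference was -4.77 ± 0.28 (SE; adjusted p = 3.21e-05). LDHA, which turns pyruvate to lactate, was at 227, 92.1, 269.8 and 212 FPKM in the 4-library table and 311, 502, 489.8, 484 and 464 FPKM in the 5-library table, a log2 difference of -1.38 ± 0.32 (SE; adjusted p = 0.00481), with wild type 1 the lowest of all libraries. PGK1, PFKFB3, PFKFB4, HK2 and ENO2 had log2 differences of -0.96, -1.33, -2.03, -1.51 and -1.57. Enzymes with no call included GAPDH at -0.34 ± 0.25, PKM at -0.07 ± 0.27, TPI1 at 0.22 ± 0.28 and ENO1 at 0.62 ± 0.26 (log2 difference ± SE; adjusted p 0.271, 0.837, 0.509 and 0.0677).

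Of 5 glucose and lactate transport genes, 4 were called lower and 1 higher. SLC2A1, the glucose transporter GLUT1, was at 47.5, 27.8, 40.3 and 40.4 FPKM in the 4-library table and 48.3, 84.7, 82.1, 88.3 and 83.8 FPKM in the 5-library table. Control 2, at 48.3 FPKM, lay close to control 1 at 47.5 FPKM, and the log2 difference was -1.01 ± 0.25 (SE; adjusted p = 0.00644). SLC16A1, a lactate transporter, had a log2 difference of -0.88, and BSG, its chaperone, was called higher by 0.99. Of 6 glucose-responsive genes, 3 were called lower and 0 higher. TXNIP (chr1:145992435-145996600, minus strand), which restrains glucose uptake, was at 3.64, 13.0, 1.27 and 4.54 FPKM in the 4-library table and 12.2, 61.7, 57.0, 55.3 and 56.7 FPKM in the 5-library table. Wild type 1 (13.0 FPKM) lay above control 2 (12.2 FPKM), so the tables overlapped, and the log2 difference was -2.90 ± 0.52 (SE; adjusted p = 0.00142). ARRDC4, a relative of TXNIP, was lower, at -1.39. In the pentose phosphate pathway, 2 of 7 genes were called higher (PGLS and TALDO1) and 1 lower (RPE), and its median of 0.10 turned to -0.13 under quantile scaling and -0.0022 without R213A 2.

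The hypoxia genes outside glycolysis had 11 of 13 members called lower (84.6%), 0 higher and a median of -1.32. BNIP3 (ENSG00000176171, chr10:131966455-131982013, minus strand), a receptor for mitochondrial clearance, was at 6.38, 6.65, 6.69 and 6.82 FPKM in the 4-library table and 11.9, 23.6, 21.9, 23.9 and 23.3 FPKM in the 5-library table. The 4 libraries were close together, control 2 was the lowest of the 5, and the log2 difference was -1.52 ± 0.21 (SE; adjusted p = 0.000428). P4HA1, a collagen prolyl hydroxylase, was at 18.9, 22.6, 17.4 and 19.4 FPKM in the 4-library table and 80.4, 110.1, 109.7, 109 and 109 FPKM in the 5-library table, a log2 difference of -2.33 ± 0.17 (SE; adjusted p = 5.54e-05). BNIP3L, VEGFA, NDRG1 and PDK1 had log2 differences of -2.44, -1.59, -1.51 and -1.27. ADM and DDIT4 did not pass, with values spread among the 4 libraries: DDIT4 was at 1.48, 143, 3.35 and 48.8 FPKM. CA9, a marker of strong hypoxia, was listed at 0 in all but R213A 1 (0.0469 FPKM), so it was under the filter.

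Promoters of these genes are shown because hypoxia-inducible factors act on glycolytic and hypoxia genes as a class, called or not. The lists were made up of such genes, so a high share with the core may follow from that choice. It says nothing about the table difference. RefSeq windows of 300 bases, 250 before to 50 after the start site (GRCh38.p14), were matched for 28 of the 32 glycolytic and hypoxia genes tested. The 6-letter core ACGTGC, or GCACGT on the other strand, was found in 10 of these genes (35.7%), against 6.89% of all 35116 windows. A list gene counted once if any of its windows held the core, whereas the second share counts single windows. The units of the shares therefore differ, here and for the elements below. The 10 genes were ALDOC, ANKRD37, BNIP3, DDIT4, EGLN1, ENO2, HK2, LDHA, PGK1 and TPI1, of which 8 were called lower. The 3 windows below are printed 5′ to 3′ on the strand of the gene, with capitals for the core. They are chr17:28576846-28577145 for ALDOC, chr12:6914330-6914629 for ENO2 and chr10:131981874-131982173 for BNIP3, on the minus, plus and minus strands.
ALDOC: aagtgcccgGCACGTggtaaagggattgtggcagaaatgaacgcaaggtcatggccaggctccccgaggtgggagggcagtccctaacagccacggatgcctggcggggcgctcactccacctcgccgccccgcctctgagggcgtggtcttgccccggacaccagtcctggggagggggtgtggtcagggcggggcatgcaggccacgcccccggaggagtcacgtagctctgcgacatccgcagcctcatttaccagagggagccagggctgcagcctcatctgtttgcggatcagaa
ENO2: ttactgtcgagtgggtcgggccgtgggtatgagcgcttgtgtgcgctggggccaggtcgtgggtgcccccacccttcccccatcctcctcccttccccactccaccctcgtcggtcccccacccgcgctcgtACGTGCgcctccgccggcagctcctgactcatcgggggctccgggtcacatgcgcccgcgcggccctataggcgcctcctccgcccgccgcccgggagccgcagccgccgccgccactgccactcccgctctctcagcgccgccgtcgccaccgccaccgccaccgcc
BNIP3: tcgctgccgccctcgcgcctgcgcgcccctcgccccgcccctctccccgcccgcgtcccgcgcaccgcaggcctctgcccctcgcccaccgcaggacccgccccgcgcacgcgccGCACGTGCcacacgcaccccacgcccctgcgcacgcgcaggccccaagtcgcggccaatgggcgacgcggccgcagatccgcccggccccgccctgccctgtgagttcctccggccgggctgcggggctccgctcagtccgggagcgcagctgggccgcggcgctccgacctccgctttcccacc

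In BNIP3 the core reads on both strands at overlapping positions, and ALDOC and ENO2 each hold 1 match. The sterol element TCACCCCAC (reverse GTGGGGTGA) was found in 1 of 42 matched lipid promoters (2.38%), that of SREBF2, against 0.43% of all windows. The amino acid response element TGATGCAA (reverse TTGCATCA) was found in 5 of 24 matched ATF4 targets (20.8%, against 0.866% of all windows), and in 0 of the 4 that were called lower. The ER stress element was found in 8 of 31 matched genes of the endoplasmic reticulum lists (25.8%, against 0.0769%), 3 of them among the 12 called lower. For the hypoxia core the count was 8 of 16 called lower. A match is a description of letters, and the absence of one says nothing about the factor.

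Nuclear genes of oxidative phosphorylation were mostly higher in the 4-library table. The counts called higher were 30 of 34 in complex I, 2 of 4 in complex II, 9 of 9 in complex III, 11 of 11 in complex IV and 15 of 18 in the ATP synthase. Over all genes 29.6% were called higher. Medians were 1.17, 0.52, 1.27, 1.10 and 1.11. Without R213A 2 the counts called higher were 26, 2, 7, 7 and 12, in the same order. The 1 member called lower in these 5 lists was NDUFS1, at -0.76. NDUFB10 (chr16:1959508-1961975, plus strand), a membrane-arm subunit of complex I, was at 118, 178, 388 and 195 FPKM in the 4-library table and 37.7, 38.2, 40.3, 37.7 and 34.6 FPKM in the 5-library table. All 4 values were above all 5, R213A 1 was the highest, and the log2 difference was 2.25 ± 0.28 (SE; adjusted p = 0.000324). CYC1, the cytochrome c1 of complex III, was at 209, 224, 509 and 271 FPKM in the 4-library table and 70.9, 56.1, 53.9, 59.4 and 56.4 FPKM in the 5-library table, a log2 difference of 2.13 ± 0.26 (SE; adjusted p = 0.000295). COX8A (chr11:63974607-63976543, plus strand), a small subunit of complex IV, was at 316, 358, 1039 and 457 FPKM in the 4-library table and 127, 135, 124, 141 and 136 FPKM in the 5-library table, a log2 difference of 1.68 ± 0.30 (SE; adjusted p = 0.00142). ATP5MC1 (chr17:48892765-48895871, plus strand), a copy of the ring subunit of the ATP synthase, was at 45.5, 40.9, 139 and 57.3 FPKM in the 4-library table and 7.44, 8.52, 6.99, 8.58 and 8.29 FPKM in the 5-library table, a log2 difference of 2.64 ± 0.29 (SE; adjusted p = 0.000206). By library, R213A 1 had the highest list medians of complexes I, III and IV and the ATP synthase, 1.87 to 2.06 above the 5-library mean in log2, and control 1 the lowest of the 4, 0.72 to 0.90 above it.

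Of the 13 genes of the mitochondrial genome, 1 was called higher (MT-ND6) and 1 lower (MT-ND4L), with a median of 0.11. MT-CO1, which encodes a catalytic subunit of complex IV, was at 3083, 2561, 2613 and 3044 FPKM in the 4-library table and 3098, 3315, 3134, 2824 and 2836 FPKM in the 5-library table. The tables overlapped, and the log2 difference was -0.09 ± 0.24 (SE; adjusted p = 0.751). The median depended on the library and the group. It was 0.80 within control, where complex I was at 0.90, but -0.22 within wild type and 0.18 within R213A, and it was 0.49 without wild type 1 and 0.0034 without control 1. It became -0.18 under quantile scaling, and -0.21 once gene length was taken out. In pyruvate entry and the TCA cycle, 8 of 21 genes were called higher and 3 lower, with a median of 0.30 (0.039 under quantile scaling). Without R213A 2 there were 5 higher and 1 lower, and without wild type 1 there was 1 lower. FH, fumarate hydratase, and MDH2, malate dehydrogenase, were higher by 1.40 and 1.44 in log2, and DLAT, the acetyltransferase of pyruvate dehydrogenase, was lower, at -1.34. Of 9 factors of mitochondrial biogenesis, 2 were called higher (POLRMT and NRF1) and 1 lower (GABPA), and none was called higher without R213A 2.

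Ribosomal protein genes were higher in the 4-library table as well. Of 75 mitochondrial ribosomal proteins, 58 were called higher (77.3%, against 29.6% of all genes) and 0 lower, with a median of 0.97. Without R213A 2, 45 of the 75 were called higher. MRPL15 was at 95.2, 108, 139.8 and 114 FPKM in the 4-library table and 27.9, 31.9, 30.5, 34.6 and 29.1 FPKM in the 5-library table, with the tables apart and a log2 difference of 1.81 ± 0.17 (SE; adjusted p = 0.000131). Of 78 cytosolic ribosomal proteins, 58 were called higher and 0 lower, with a median of 0.85. RPS26, of the small subunit, was at 158, 189, 461 and 217 FPKM in the 4-library table and 41.7, 36.4, 35.0, 39.8 and 36.5 FPKM in the 5-library table, a log2 difference of 2.46 ± 0.28 (SE; adjusted p = 0.000227). Many cytosolic ribosomal protein genes have processed copies elsewhere in the genome, so their values are uncertain. The cytosolic count was 9 without R213A 2, 17 without wild type 1, and 75 without control 1, and under quantile scaling it was 39 with a median of 0.33. Control 1 had a list median 0.25 above the 5-library mean and R213A 1 one of 1.64, while control 2, of the 5-library table, stood at 0.21. The median difference of the cytosolic list was 0.20 within control, 1.05 within wild type and 1.34 within R213A. Ribosome assembly factors had 13 of 20 called higher and 0 lower, among them BOP1 (2.23), RRP9 (2.22), PES1 (1.87) and NOP56 (1.78); without control 1, 4 were called lower, and the median of 0.71 was 0.37 under quantile scaling. In the proteasome, which degrades tagged proteins, 16 of 31 genes were called higher and 2 lower, with PSMB6 at 1.81 and a median of 0.45. Under quantile scaling 10 were higher and 6 lower, with a median of 0.13, without R213A 2 there were 8 higher and 0 lower, and without wild type 1 there were 0 lower. Of 23 translation factors, 10 were called higher and 1 lower, and the median of 0.33 was -0.14 under quantile scaling and -0.05 within the control matrix. Without wild type 2 or wild type 3 there were 6 called higher, and without R213A 2 there were 5.

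Cell cycle genes did not divide by table in the same way, and the 4 libraries differed among themselves. In the G2/M list 5 of 30 genes were called higher (16.7%, against 29.6% of all genes) and 3 lower, with a median of 0.03 that changed sign under each of the 3 other scalings (-0.11 to -0.04). CDK1 (chr10:60778331-60794852, plus strand), the mitotic kinase, was at 55.6, 12.1, 38.4 and 41.8 FPKM in the 4-library table and 35.4, 28.7, 27.3, 29.3 and 30.2 FPKM in the 5-library table. Control 1 was the highest and wild type 1 the lowest of all 9 libraries, and the log2 difference was 0.00 ± 0.31 (SE; adjusted p = 0.991). MKI67, the proliferation marker Ki-67, was at 31.6, 4.31, 22.7 and 17.1 FPKM in the 4-library table and 9.81, 11.1, 11.9, 8.73 and 11.8 FPKM in the 5-library table, a log2 difference of 0.38 ± 0.39 (SE; adjusted p = 0.421). TOP2A, a topoisomerase of dividing cells, was at 61.0, 6.91, 18.6 and 29.4 FPKM in the 4-library table and 54.1, 42.6, 42.8, 37.9 and 41.2 FPKM in the 5-library table, a log2 difference of -0.94 ± 0.41 (SE; adjusted p = 0.0694). The called increases included CDC20, PLK1, UBE2C and BIRC5, at 1.85, 1.49, 1.24 and 1.64, and the called decreases were ANLN, ASPM and TTK. Without wild type 1, 16 of the 30 were called higher and 0 lower, with a median of 0.72; without control 1, 3 were called higher and 9 lower, with a median of -0.41. Without R213A 2 there were 2 higher and 1 lower, and the median was -0.10; without control 2, control 3 or R213A 3 it also fell below 0 (-0.061 to -0.00061).

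The S phase list had 14 of 34 genes called higher (41.2%) and 0 lower, with a median of 0.39. That direction rested on single libraries: without control 1 the list had 7 higher, 3 lower and a median of -0.07, and within control, wild type and R213A the medians were 1.18, -0.66 and 0.73. MCM5, of the replicative helicase, was at 34.2, 17.8, 56.6 and 42.8 FPKM in the 4-library table and 8.16, 7.09, 7.57, 7.64 and 7.45 FPKM in the 5-library table. All 4 values were above all 5, and the log2 difference was 1.91 ± 0.24 (SE; adjusted p = 0.000327). MCM2 (chr3:127598223-127622436, plus strand), of the same helicase, was at 52.7, 10.5, 32.5 and 34.9 FPKM in the 4-library table and 18.9, 25.7, 24.2, 26.2 and 25.3 FPKM in the 5-library table, with wild type 1 below every other library and a log2 difference of 0.14 ± 0.36 (SE; adjusted p = 0.749). The S phase genes called higher numbered 24 without wild type 1, with a median of 0.96, 9 without R213A 1, 5 without R213A 2, and 9 on FPKM as deposited. Of 20 genes of G1 control, 6 were called higher and 6 lower, 30% each, against 29.6% and 30% of all genes; without R213A 2, 1 was called higher. Among the members, CDK4, a G1 kinase, was higher by 0.94 in log2 and E2F1 by 1.32, and RB1 and the inhibitors CDKN2B and CDKN2D were lower, at -1.83, -1.47 and -1.69. Cyclin D1 (CCND1) differed by -0.17 ± 0.24 (SE; adjusted p = 0.563). Of 64 replication-dependent histone genes, 10 passed the filter, with 2 called higher and 3 lower, in libraries made from polyadenylated RNA; under quantile scaling 5 were lower, and without R213A 2 there were 0 higher.

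Stress genes were also uneven among the 4 libraries, with wild type 1 the highest for several of them. In the ATF4 list 1 of 28 genes was called higher (ATF5, 2.30) and 6 lower (21.4%, against 30% of all genes), with a median of -0.20. TRIB3 (ENSG00000101255, chr20:362835-397559, plus strand), a pseudokinase switched on by ATF4 and CHOP, was at 11.6, 335, 24.7 and 62.7 FPKM in the 4-library table and 60.8, 59.2, 57.7, 65.0 and 59.1 FPKM in the 5-library table. The 5 libraries were within a narrow range, the 4 libraries ran from far below it to far above it, and the log2 difference was -0.14 ± 0.68 (SE; adjusted p = 0.872). DDIT3, which encodes CHOP, was at 6.09, 146, 11.8 and 25.6 FPKM in the 4-library table and 64.1, 26.4, 25.9, 30.5 and 28.9 FPKM in the 5-library table, a log2 difference of -0.31 ± 0.72 (SE; adjusted p = 0.725). CHAC1, which degrades glutathione, was at 1.40, 56.0, 3.58 and 28.4 FPKM in the 4-library table and 11.4, 20.8, 18.6, 20.4 and 18.4 FPKM in the 5-library table, a log2 difference of -0.68 ± 0.74 (SE; adjusted p = 0.447). SLC7A11, the cystine importer, was lower in all 4, at 16.3, 11.5, 8.02 and 13.1 FPKM in the 4-library table and 31.7, 84.4, 80.7, 70.5 and 76.5 FPKM in the 5-library table, a log2 difference of -2.33 ± 0.33 (SE; adjusted p = 0.000515). Without wild type 1, 11 of 28 were called lower and the median was -0.81; without control 1 it was 0.39, with 6 called higher and 5 lower; without R213A 1 it was 0.02, and under quantile scaling -0.56 with 9 called lower.

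In the endoplasmic reticulum, HSPA5 (BiP), the main chaperone there, was at 173, 949, 207 and 239 FPKM in the 4-library table and 304, 481, 466, 514 and 528 FPKM in the 5-library table, highest in wild type 1, with a log2 difference of -0.48 ± 0.39 (SE; adjusted p = 0.314). Of 18 chaperone and folding genes, 4 were called higher and 5 lower, with a median of -0.10. Under quantile scaling 2 were higher and 8 lower, without wild type 1 there were 1 and 7, and without R213A 2 there were 2 and 4, with a median of 0.10. ERO1A, the oxidase for disulfide bonds and a hypoxia target, was at 17.6, 12.2, 13.0 and 15.0 FPKM in the 4-library table and 40.7, 44.9, 44.4, 41.0 and 45.1 FPKM in the 5-library table, a log2 difference of -1.53 ± 0.16 (SE; adjusted p = 0.000159), and SDF2L1, a BiP partner, was higher by 1.88 in log2. Of 15 sensors and degradation factors, 8 were called lower and 2 higher, with EDEM1 and SEL1L, which clear misfolded proteins, at -2.14 and -1.84. None was called higher without wild type 1, wild type 2, wild type 3 or R213A 2, and 5 were lower without R213A 2. Once gene length and transcript GC content were taken out, 4 were called lower and 1 higher. Of 19 heat shock genes, 6 were called higher and 7 lower, and the median of 0.06 changed sign under the 3 other scalings (-0.34 to -0.03) and without control 1, control 3 or R213A 2 (-0.17 to -0.02). Without R213A 2, 1 was called higher and 4 lower, without wild type 1 there were 4 lower, and under quantile scaling 3 were higher. HSPB8 was lower, at -2.36, and HSPE1 and HSF1 were higher, at 1.05 and 0.87. HSPA1A was lower, at -0.89, a value shared uncertainly with its near-identical neighbour HSPA1B.

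Of 18 NRF2 targets, which answer oxidants, 6 were called higher (33.3%) and 7 lower (38.9%), near the shares of all genes (29.6% and 30%). Without R213A 2 there were 3 and 4. NQO1, a quinone reductase, was at 75.7, 219.5, 153 and 153 FPKM in the 4-library table and 41.8, 52.1, 48.0, 50.7 and 45.3 FPKM in the 5-library table. Control 1 was the lowest of the 4 but above all 5, and the log2 difference was 1.52 ± 0.25 (SE; adjusted p = 0.00103). HMOX1 (chr22:35380361-35394214, plus strand), haem oxygenase, was at 33.4, 331, 54.9 and 66.7 FPKM in the 4-library table and 880, 294, 330.5, 329.9 and 335 FPKM in the 5-library table, a log2 difference of -2.11 ± 0.61 (SE; adjusted p = 0.014). Wild type 1 lay within the 5-library range of HMOX1, and control 2 was the highest of all. Of 14 p53 targets, 4 were called higher (28.6%) and 6 lower (42.9%); CDKN1A (p21), at 6.65, 80.2, 11.7 and 19.6 FPKM in the 4-library table and 46.3, 36.8, 40.7, 44.5 and 43.6 FPKM in the 5-library table, had a log2 difference of -1.01 ± 0.49 (SE; adjusted p = 0.104). Of 14 interferon response genes, 8 were called lower (57.1%) and 3 higher (1 without R213A 2), with the RNA sensors RIGI and IFIH1 at -1.88 and -1.19. Of 17 NF-kB and cytokine genes, 6 were called lower (35.3%) and 1 higher, the former including SOD2 at -1.90 and BIRC3 at -1.58. Without wild type 1, 11 were lower and 0 higher, with a median of -1.14, and on FPKM as deposited 10 were lower. CXCL8, the chemokine IL-8, was listed at 0 in control 1 and R213A 1, at 0.796 in wild type 1 and 0.0736 in R213A 3, against 0.871, 6.75, 6.12, 6.83 and 7.33 FPKM in the 5-library table. The medians of NF-kB genes and of immediate early genes were -0.53 and -0.59 overall and 0.32 and 0.09 within the wild type matrix.

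Immediate early genes, which answer growth factors within minutes, had 9 of 21 members called lower and 2 higher, with FOS, DUSP1 and KLF6 at -1.72, -1.32 and -1.60; the median was -0.95 under quantile scaling. FOXO and insulin feedback genes had 7 of 9 called lower (77.8%, against 30% of all genes), 0 higher and a median of -1.18. CCNG2 (chr4:77157151-77433388, plus strand), a cyclin of resting cells that FOXO factors switch on, was at 2.26, 1.73, 0.933 and 1.51 FPKM in the 4-library table and 21.0, 22.8, 21.5, 19.6 and 18.9 FPKM in the 5-library table. All 4 values were far below all 5, and the log2 difference was -2.99 ± 0.15 (SE; adjusted p = 2.25e-05). IRS2, the insulin receptor substrate, and KLHL24 were lower, at -1.18 and -1.74. Lysosome and autophagy genes had 4 of 21 called higher and 6 lower, with GABARAPL1, an autophagosome protein, at -2.21. Without R213A 2 there were 1 and 3, without wild type 1 there were 2 and 6, and under quantile scaling 2 and 8.

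Genes that answer cell shape and attachment were called lower more often than higher. Of 18 YAP/TAZ targets, 9 were called lower (50%, against 30% of all genes) and 2 higher, with a median of -0.84. MYOF and LATS2 were lower, at -1.69 and -1.91, and NT5E was at 69.0, 66.6, 50.2 and 71.7 FPKM in the 4-library table and 176, 167, 180.3, 165 and 172 FPKM in the 5-library table, a log2 difference of -1.39 ± 0.18 (SE; adjusted p = 0.000343). Of 12 collagen receptor and integrin genes, 5 were called lower (41.7%) and 2 higher, with a median of -0.56 that was -0.16 without control 1 and -0.35 without control 2. ITGB1 (chr10:32900319-33005792, minus strand), a beta chain shared by many integrins, was at 100.3, 66.0, 26.0 and 65.6 FPKM in the 4-library table and 283, 216, 214, 202 and 208 FPKM in the 5-library table. R213A 1 was the lowest library, the tables did not overlap, and the log2 difference was -1.74 ± 0.30 (SE; adjusted p = 0.00124). ITGAV and ITGA2 were lower, at -2.48 and -2.38, and the syndecan SDC1 was higher, at 1.68. Of 21 splicing factors, 9 were called higher and 1 lower; 5 were higher without control 1, under quantile scaling or with reads scaled by totals, and 2 without R213A 2. Among 3 long nuclear RNAs, NEAT1 was higher by 1.39 in log2, and NORAD and MALAT1 were lower, at -1.20 and -0.46.

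**Figure D2:**
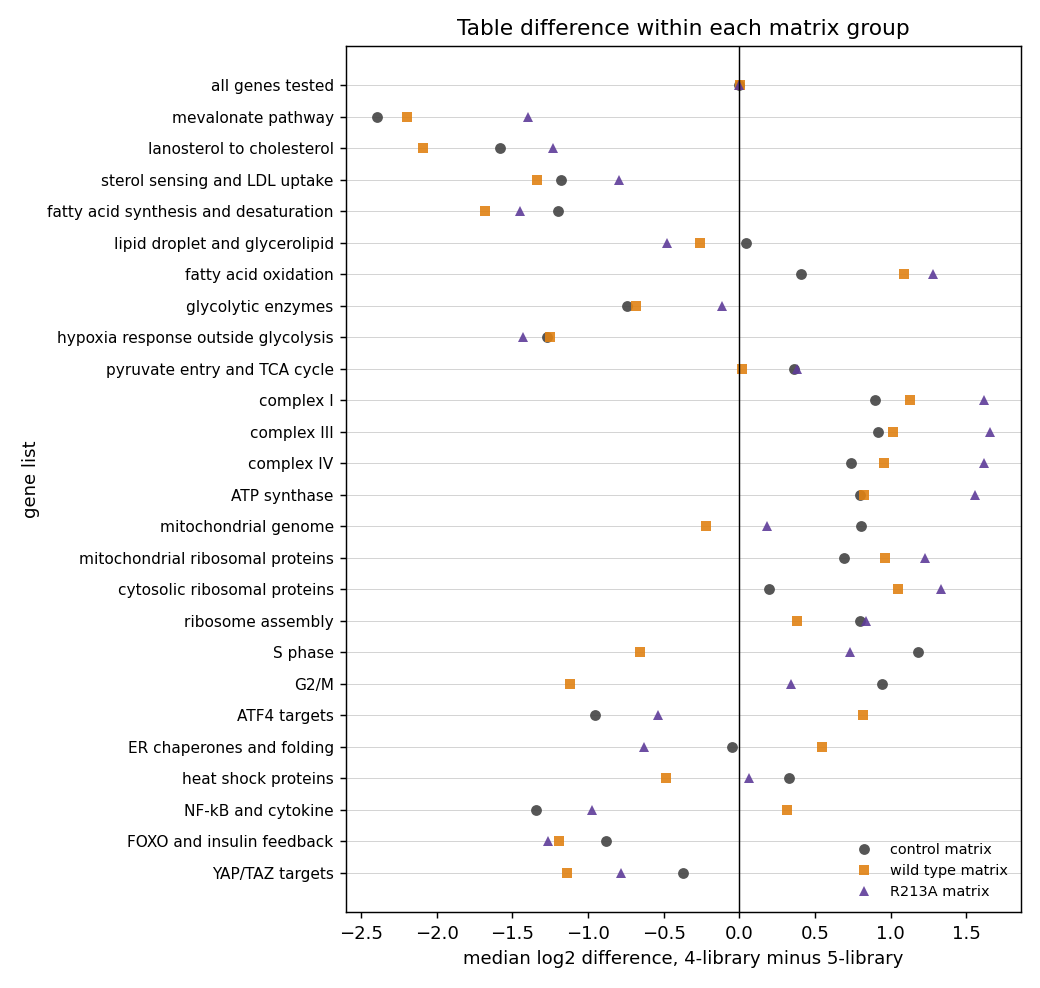
Median log2 difference, 4-library minus 5-library, of all genes tested and of 25 gene lists (rows), taken within control (circles), wild type (squares) and R213A (triangles) matrix. Sterol and hypoxia lists lie left of 0 and complex I, III, IV and ATP synthase lists right of 0 in all 3 groups, whereas G2/M spans -1.12 to 0.94 and ATF4 targets -0.95 to 0.82.

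The matrix group was the second term of the same fit. It reached an adjusted p under 0.05 for 0 genes, with 163 genes (1.46%) at an unadjusted p under 0.05 and a smallest adjusted p of 0.802 (limma), and voom on the recovered reads likewise called 0, whereas 1 gene was called without a filter and 5 with library weights. Of the 6676 called genes 6492 (97.2%) had the same sign within all 3 matrix groups, against 7881 of all 11193 tested (70.4%). The calls were chosen on a difference that averages the 3 groups, which favours shared signs. Mevalonate pathway medians were -2.40 within control, -2.20 within wild type and -1.40 within R213A, and complex I medians were 0.90, 1.12 and 1.61. The interaction of table and matrix group called 0 genes, with 1678 (15%) at an unadjusted p under 0.05 and a smallest adjusted p of 0.0683 (limma, 3 residual degrees of freedom). At an adjusted p under 0.05 the interaction called 2000 genes without a filter in limma. With library weights, whose estimation did not converge, it called 1535. Of the G2/M genes 29 of 30, of the S phase genes 28 of 34 and of the ATF4 targets 14 of 28 were among those 1678, and none of the genes of complexes I to IV and the ATP synthase was. Because each matrix group had only 1 library in 1 of the tables, a dependence on the matrix cannot be told apart from a single library such as wild type 1.

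Gene length moved with the table difference. Across the 11193 genes, which are not independent replicates, Spearman's rho between listed gene length and the log2 difference was -0.37, and it was -0.27, -0.35 and -0.38 within control, wild type and R213A. Genes were divided by length into 5 equal bins. The bin of shortest genes (53 to 2396 bases) had a median log2 difference of 0.54, and the bin of longest genes (7823 to 44677 bases) one of -0.46. In the shortest bin 46.9% of genes were called higher and 12.1% lower, and in the longest 11.8% and 52.1%. The median read lay on a gene of 4117 to 5093 bases in the 4 libraries and of 5374 to 5529 bases in the 5. The median listed length was 2131 bases for complex I, 3056 for cytosolic ribosomal proteins and 7169 for collagen receptors and integrins, against 4685 for all genes tested.

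**Figure D3:**
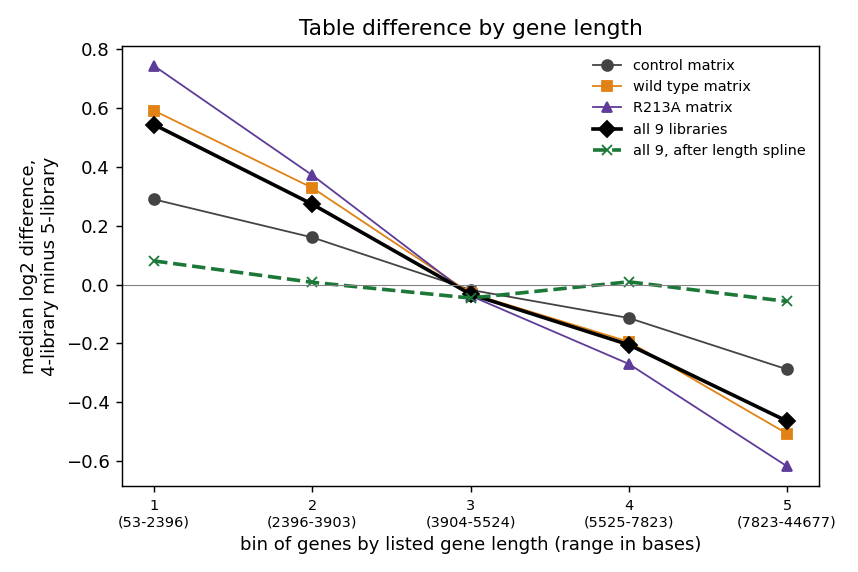
Median log2 difference, 4-library minus 5-library (vertical axis), in 5 equal bins of genes by listed length in bases (horizontal axis), for all 9 libraries, within each matrix group, and after a spline of gene length was taken out of each library. The median falls from 0.54 to -0.46 before that step and stays between -0.06 and 0.08 after it.

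The lists were therefore read again after a spline of gene length was taken out of each library, which left a rho of -0.02 and 6209 called genes. Of the original calls 5251 (78.7%) held in the same direction. Medians became -1.85 for the mevalonate pathway, -1.54 for fatty acid synthesis, -1.13 for hypoxia, 0.89 for complex I, 0.69 for complex IV and 0.66 for cytosolic ribosomal proteins. INSIG1, listed at 3650 bases, was at -4.38 after the step. CPT1A, listed at 6565 bases, was higher by 1.90, and COX8A, listed at 507 bases, by 1.16. With transcript GC content taken out as well, a step added after seeing the data, 4142 calls (62.0%) held, and the medians were -2.09, -1.06, -1.05, 0.89, 1.18 and 0.72. Some other medians moved toward 0 after the length spline alone. They went from -0.54 to -0.29 for ER sensors and degradation factors and from 0.45 to 0.23 for the proteasome. Collagen receptors and integrins went from -0.56 to -0.38. Others moved away from 0, from -0.53 to -0.88 for NF-kB genes and from -0.84 to -1.01 for YAP/TAZ targets. Length and GC content together took up 1.12% (control 1) to 38.1% (R213A 1) of a library's deviation from the gene means, and whether either is a cause of the table difference was not tested.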

How the data were processed

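RNA of PaTu 8988t cells was sequenced as 9 mRNA libraries, and the authors deposited FPKM per gene, with gene length, in 2 tables. The submitters' processing notes name hg38 and bcl2fastq; aligner, counting program, strand setting and annotation: not given in the sources used here. Genes that overlap, have an antisense partner or near-identical copies are therefore uncertain.

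Symbols were matched for 58207 of 58735 identifiers. The deposited FPKM values had been scaled within each table, so the 9 libraries were first rescaled together by median-of-ratios factors over the 11193 genes that averaged 1 FPKM or more. Levels were compared as log2(FPKM + 1) with limma 3.58.1 in R 4.3.3 (all 9 libraries, table and matrix group as terms, mean-variance trend, 5 residual degrees of freedom, 2-sided, Benjamini-Hochberg threshold 0.05). Differences are 4-library minus 5-library; this scale understates changes of low genes. For a value of 0 the limit is 3 reads, covering counting error only. Lists carry no test of their own, and their counts are to be read against the share of all genes called. The procedure was tested on simulated data with independent noise and the same spread in both tables. That test therefore does not cover the unequal spread of the measured libraries.

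The members, lists and rules were chosen with earlier results of these data known. Named genes were the 10 largest protein-coding differences in each direction among called genes with tables apart, the 4 list members with the smallest p in each list, and 40 genes fixed by name; other list members were named after their values were seen, and a few named genes are not reported here. Alternatives changed the scaling, pseudocount (0.1, 0.5), filter, spread model, terms, libraries, length and GC correction (splines with 5 degrees of freedom; GC from GENCODE 29 transcripts for 11188 genes) and used voom on recovered reads. Gene coordinates are hg38 and promoters RefSeq GRCh38.p14.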

Additional observations from a re-analysis of the deposited data

Results flagged for a closer look

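Within each table, the highest and the lowest library of each described gene and list was compared with its neighbour: the gap was divided by the table's whole range on the log2 scale and set against Dixon's 95% value. Chance alone passes about 1 in 20 groups. Of 67 items (42 genes and 25 lists), 30 passed, all of them through control 2 in the 5-library table, 18 as the highest and 12 as the lowest library, and none passed in the 4-library table.

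Control 2 was far above the other four libraries for the flagged genes of sterol and fatty acid supply. The gap took up 0.918 of the range for HMGCS1, 0.871 for IDI1, 0.946 for SQLE, 0.948 for MSMO1 and 0.924 for INSIG1. It was 0.818 for ACLY, 0.881 for FASN and 0.85 for LPIN1. The lists followed, with 0.931 for the mevalonate pathway, 0.83 for lanosterol to cholesterol, 0.784 for sterol sensing and LDL uptake, 0.752 for fatty acid synthesis and 0.858 for lipid droplet genes. Not all lipid genes were highest there: GGPS1 was at 15.13 FPKM in control 2 and at 17.34 to 18.06 FPKM in the rest of its table. FADS1, at 81.02 FPKM in control 2, lay within the range of the rest (77.25 to 87.29 FPKM). Outside lipid supply control 2 was also highest for HMOX1 (0.881), DDIT3 (0.822), ITGB1 (0.801), MFSD3 (0.776) and the pyruvate and TCA list (0.828).

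The same library was set below the rest of its table for several glucose and hypoxia genes. The gap was 0.835 of the range for LDHA, 0.878 for SLC2A1, 0.931 for TXNIP, 0.872 for BNIP3, 0.967 for P4HA1 and 0.967 for the hypoxia list. It was 0.748 for MCM2, 0.904 for the S phase list, 0.788 for CHAC1, 0.815 for SLC7A11, 0.775 for HSPA5 and 0.84 for the list of ER chaperones. For the flagged glucose and hypoxia genes control 2 lay on the side of the 4-library table, and for the flagged sterol genes on the opposite side. Not all glucose genes followed: ALDOC was highest in control 2 (344 FPKM). ARRDC3, a glucose-responsive gene, was at 29.3 FPKM there and at 10.96 to 13.05 FPKM in the rest of its table. What sets this library apart was not tested.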

How the results depend on the processing

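Of the results for named genes under the alternatives, 5350 kept their direction and side of the threshold, 56 passed newly, 260 no longer passed (189 of them with the replicate block) and 5 reversed. The count of 6676 called genes was 4309 (1945 lower) with the filter at 5 FPKM, where fewer genes are tested, and ran from 4224 to 7043 leaving out 1 library at a time (1996 to 3512 higher, 2228 to 3531 lower). The lowest values, 4224, 1996 and 2228, came without R213A 2. FPKM as deposited shifted all genes to a median of -0.08 and the called genes to 44.3% higher, from 49.6%, and voom on recovered reads called 6700.

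Without a filter the matrix group called 1 gene and the interaction 2000; library weights, whose estimation did not converge, gave 5 and 1535. Leaving out 1 library, the interaction called 0 to 6 genes; it could not be fitted without control 1, wild type 1 or R213A 2. Spearman's rho with gene length was -0.19 without a filter, -0.27 within control alone, -0.29 with the replicate block, -0.021 after the length spline and -0.027 after length and GC splines.

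With the replicate block, 0 genes were called (0 higher, 0 lower), with 1452 at an unadjusted p under 0.05 in limma. Only R213A 3 separates replicate number from table. Its deviations from group means correlated at -0.65 and -0.70 with control 3 and wild type 3, which lie in the other table. Same-number pairs within a table correlated at 0.335 to 0.843. These values contain the table difference, so they cannot show whether the numbers pair libraries. Beside the table, R213A 3 correlated at -0.337 and -0.091 with control 3 and wild type 3. Same-number pairs within a table then ran from -0.754 to -0.0655. What the fit leaves over sums to 0 within each table and each group, which pushes such correlations below 0. These values therefore cannot show whether the numbers pair libraries either. The main fit has no replicate term, so its calls assume unpaired libraries.

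Among list medians larger than the spread between libraries, those that reversed were of translation factors (-0.14 under quantile scaling, -0.047 within control), LXR genes (0.60 with the filter at 5 FPKM), nuclear RNAs (0.27 after length and GC), lipid droplet genes (0.046 within control), NF-kB genes (0.32 within wild type) and immediate early genes (0.093 within wild type). Smaller medians, such as those of S phase, G2/M, ATF4, heat shock, NRF2, lysosome, pentose phosphate and mitochondrial genome lists, changed sign under some scalings, libraries left out or matrix groups. Reversed genes were H2AC25 (-0.10 with the block, -0.16 after length and GC), MALAT1 (0.27 after length and GC), H2BC21 (0.14 within wild type) and HMOX1 (0.0021 within wild type). The cause of these was not tested. Genes under the filter were not tested, and a value of 0 allows up to 3 reads.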
